A study of Homo sapiens with 12 samples.

Results

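AP-1 is a transcription factor made of pairs of basic leucine zipper proteins, and 9 genes that encode its subunits were followed here across 12 RNA-seq libraries of a breast cancer cell line. They were the FOS family (FOS, FOSB, FOSL1, FOSL2), the JUN family (JUN, JUNB, JUND) and the related genes ATF3 and BATF3. They were picked by symbol from the 26364 gene rows of the count table, and all 9 were among the 14184 rows with enough reads to be tested. The cells were MDA-MB-231, an established human triple-negative, mesenchymal breast cancer line. Over 24 h, wells had no drug (no vehicle is named in the sources used here), 1 µM DEX (dexamethasone, a steroid drug that activates the glucocorticoid receptor), 8 µM SH4-54 (a STAT inhibitor that binds STAT3 and STAT5 proteins), or the combination of the same doses, with 3 replicate wells in each of the 4 groups. No genotype or transgene distinguished the groups, and every group was the same line.

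FOS proteins bind DNA only when paired with a JUN protein, while JUN proteins can also pair with each other. FOS, FOSB, JUN and ATF3 are transcribed within minutes of a growth or stress signal through MAP kinases, whereas FOSL1 (FRA1), FOSL2 (FRA2) and JUND are held at steadier levels, and FOSL1 is known as the abundant partner in mesenchymal breast cancer cells. The glucocorticoid receptor is known to hold back AP-1 at many inflammatory genes by binding to it, and STAT3 binds with JUN at some shared targets.

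RefSeq promoter sequences (GRCh38.p14, another build than the hg19 and GRCh37 named for the counts) were at hand for 7 of the 9 genes, with 8 start sites. The 250 bases before each start were searched on both strands for the AP-1 site TGANTCA, the cyclic AMP response element core TGACGT, the JUN-type site TGACNTCA, the CArG box of serum response factor, the heat shock pair GAANNTTC, the STAT site TTCNNNGAA and the glucocorticoid response element. TGACGT and TGACNTCA overlap where the full element stands, as before JUND. The last 150 bases before the start are shown 5′ to 3′ for the genes whose levels differed most between groups and for FOSL2, which carries the same core as FOS and FOSB but changed little with SH4-54. Capitals mark the matches.
FOS, chr14:75278678-75278827, plus strand: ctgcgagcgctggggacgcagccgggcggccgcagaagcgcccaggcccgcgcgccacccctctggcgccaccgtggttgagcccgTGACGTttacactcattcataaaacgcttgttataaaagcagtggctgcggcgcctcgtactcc
FOSB, chr19:45467846-45467995, plus strand: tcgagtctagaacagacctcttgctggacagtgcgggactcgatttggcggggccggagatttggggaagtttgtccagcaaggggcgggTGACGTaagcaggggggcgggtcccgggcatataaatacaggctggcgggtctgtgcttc
FOSL2, chr2:28392708-28392857, plus strand: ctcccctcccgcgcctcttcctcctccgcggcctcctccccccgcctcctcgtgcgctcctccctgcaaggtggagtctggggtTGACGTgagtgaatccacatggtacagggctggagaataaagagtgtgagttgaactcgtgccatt
JUN, chr1:58784048-58784197, minus strand: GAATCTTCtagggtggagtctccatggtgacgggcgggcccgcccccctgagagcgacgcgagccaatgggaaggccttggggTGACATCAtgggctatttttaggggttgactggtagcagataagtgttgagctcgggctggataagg
ATF3, first listed start, chr1:212565257-212565406, plus strand: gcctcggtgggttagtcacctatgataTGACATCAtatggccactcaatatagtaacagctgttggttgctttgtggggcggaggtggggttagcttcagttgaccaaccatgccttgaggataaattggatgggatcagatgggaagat

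The core TGACGT ended 59 bases before the FOS start, 55 before that of FOSB and 61 before that of FOSL2, and was also found before JUND. It occurs in 7.1% of all 35116 promoter windows of the same length. JUN and the first listed start of ATF3 held the JUN-type letters tgacatca, which ended 60 and 116 bases before the start. TGACNTCA occurs in 6.87% of windows. None of the searched sites was found before the second listed start of ATF3. JUN alone among the 7 genes held a heat shock pair, gaatcttc, found in 5.78% of windows. None of these windows held the AP-1 site, the CArG box, the STAT site or the glucocorticoid element (6.57%, 1.16%, 6.57% and 0.327% of windows), and the serum response element of FOS is known to lie farther upstream than the window. A match is a description of letters, and no binding was measured in these cells.

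Depth was similar throughout, with 25577213 to 35758236 counted reads in a library. The mesenchymal genes VIM (805 to 1370 CPM, which is the read count scaled to library size) and AXL (635 to 971 CPM) were high and ESR1 was at most 0.233 CPM, while SPARC, another mesenchymal marker of the list, was at most 0.3 CPM and the epithelial keratin genes KRT8 (343 to 520 CPM) and KRT18 were high. FKBP5, a glucocorticoid target, stood at 52.4 to 55.6 CPM without drug and 310 to 345 CPM with DEX. On the first and second principal components the wells with both compounds lay farther apart than those of other groups. On the second, replicate 2 lay at -31.4 against -22.3 and -13 for replicates 1 and 3. Some of the values that rest on these wells, but not all, are therefore also given without replicate 2. By chi-square over its degrees of freedom, no-drug replicates 1 and 2 (15) differed about as much as pairs of wells with both compounds (12.6 to 17.8). HSPA6, an inducible heat shock gene, stood at 150, 483 and 156 CPM in the wells with both compounds, 19.4 to 27.1 CPM with SH4-54 and at most 0.641 CPM elsewhere, and its part in the AP-1 results was not tested. Since RNA was measured from whole wells, fewer expressing cells and less RNA per cell cannot be told apart. Below, ± after a CPM mean is the SD over 3 wells and ± after a log2 fold change is its standard error, and adjusted p-values are those of edgeR's quasi-likelihood test over the whole tested table, called below 0.05.

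To compare levels between genes, CPM was divided by the length of all annotated exons of the gene (GENCODE 29) in kilobases. The annotation behind the counts is not stated and may give other lengths, and the order of the genes depends on them. In CPM without drug FOSL2 (136) and JUN (70.7) lay above JUND (55). Per kilobase JUND was the most abundant of the 9 without drug (29.5 ± 1.58 CPM per kb), followed by FOSL2 (20 ± 0.383) and JUN (20 ± 0.717), whose wells overlapped. FOSL1 (10.3 ± 0.79) and JUNB (9.05 ± 0.678) came next, also overlapping, then BATF3 (4.72 ± 0.393) and ATF3 (1.93 ± 0.136). FOS (0.589 ± 0.0347) and FOSB (0.0429 ± 0.022) were the lowest. In the wells with both compounds JUN (27.3 ± 5.39 CPM per kb) and JUND (22.6 ± 0.912) overlapped at the top, and FOS (8.98 ± 3.45) overlapped FOSL1 (8.86 ± 0.95) and ATF3 (6.97 ± 1.07). FOSB was still the lowest, at 1.68 ± 0.687 CPM per kb.

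**Figure D1:**
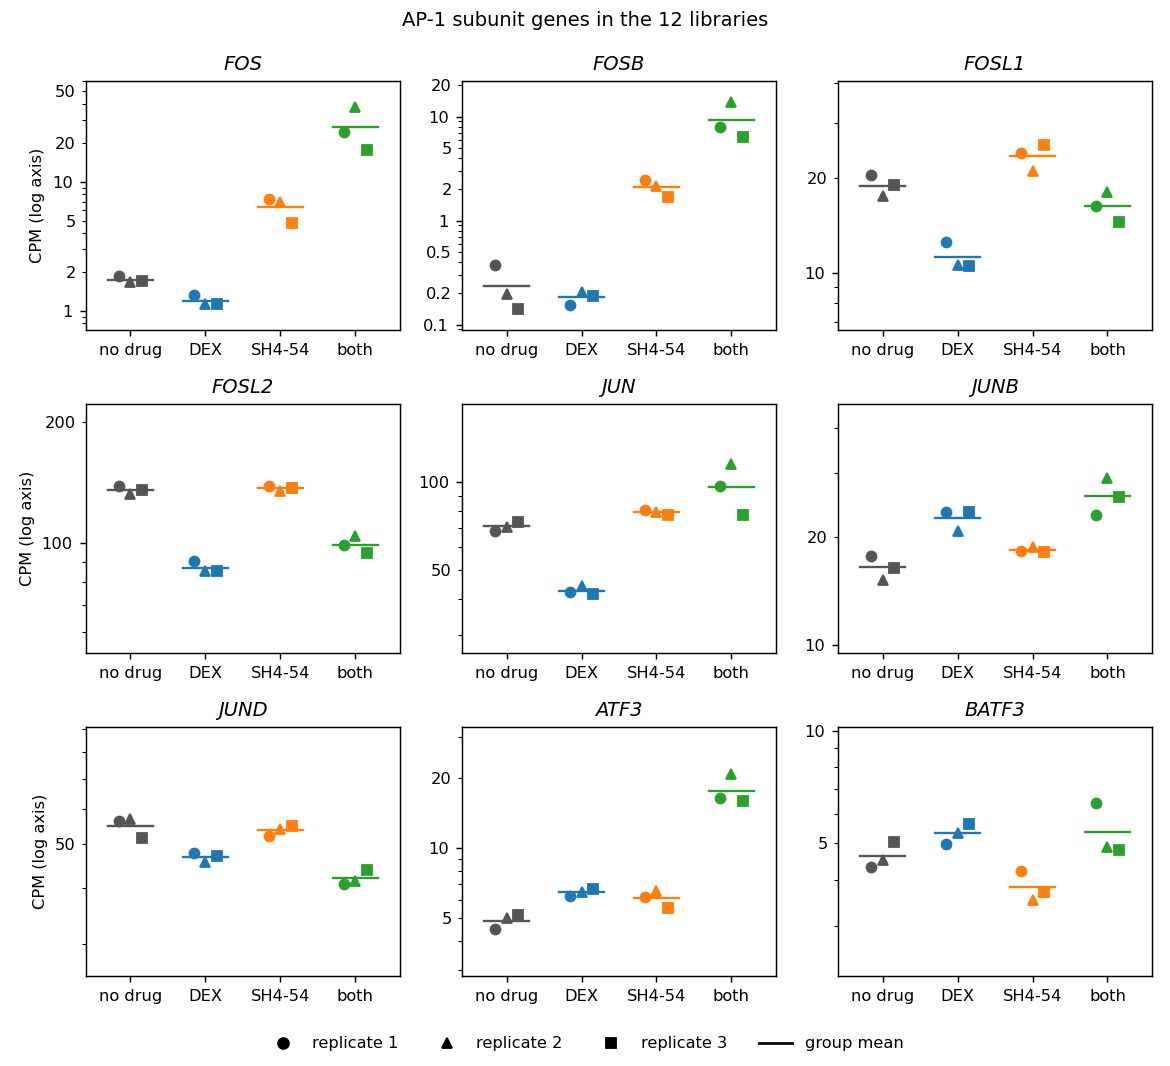
CPM of the 9 AP-1 genes (log axis, a different range in each panel) in the 12 libraries, grouped by treatment; symbols are replicate wells and lines are group means. FOS and FOSB lie low without drug and with DEX, higher with SH4-54 and highest with both compounds, while FOSL2 and JUND lie lower in both groups with DEX.

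FOS, the founding member of its family, had 1.85, 1.66 and 1.69 CPM in the no-drug wells, 1.32, 1.13 and 1.13 CPM with DEX, 7.35, 6.98 and 4.75 CPM with SH4-54 and 24.1, 37.5 and 17.6 CPM with both compounds. No 2 of the 4 groups overlapped. With SH4-54 alone FOS rose 3.68-fold (log2 fold change 1.88 ± 0.30, adjusted p = 0.00849, or 0.0507 without no-drug replicate 2). With both compounds it was 22.0-fold higher than with DEX alone (4.46 ± 0.28, adjusted p = 3.57e-07) and 4.11-fold higher than with SH4-54 alone (2.04 ± 0.22, adjusted p = 3.59e-06). Without combination replicate 2 these log2 values were 4.12 and 1.70. With DEX alone the log2 fold change was -0.54, with a 95% interval from -1.39 to 0.30 that did not pass (adjusted p = 0.292), although the wells did not overlap. In a fit of these 2 groups alone its adjusted p was 0.0201.

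FOSB, the closest relative of FOS, followed the same order at lower levels. It had 0.376, 0.199 and 0.141 CPM without drug (12, 6 and 4 reads) and 0.155, 0.206 and 0.188 CPM with DEX (4, 6 and 5 reads). It reached 2.44, 2.14 and 1.70 CPM with SH4-54 and 7.96, 13.7 and 6.42 CPM with both. The no-drug and DEX wells overlapped and the others did not. The count filter admitted FOSB to the tests through the wells with SH4-54, alone or with DEX, where it was high. SH4-54 alone raised FOSB by 3.09 ± 0.43 on the log2 scale (adjusted p = 0.00326), and both compounds by 5.63 ± 0.38 over DEX (adjusted p = 6.35e-07, 5.25 without combination replicate 2) and by 2.14 ± 0.25 over SH4-54 (adjusted p = 8.56e-06, 1.77 without it). For DEX alone the 95% interval ran from -1.93 to 1.15, so at this depth neither a 2-fold fall nor a 2-fold rise of FOSB could be told from no change.

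FOSL1, which encodes FRA1, was lower with DEX both without and with SH4-54. It had 20.4, 17.5 and 19.0 CPM without drug, 12.5, 10.6 and 10.5 CPM with DEX, 24.1, 21.1 and 25.4 CPM with SH4-54 and 16.3, 18.0 and 14.5 CPM with both. DEX lowered it 1.70-fold (-0.76 ± 0.097, adjusted p = 1.29e-05), and in the presence of SH4-54 it was 1.45-fold lower (-0.53 ± 0.092, adjusted p = 0.000299). The SH4-54 wells lay above all no-drug wells, but the log2 fold change of 0.31 ± 0.09 did not pass (adjusted p = 0.152). SH4-54 added to DEX raised FOSL1 by 0.54 ± 0.098 (adjusted p = 0.00129). Both compounds against no drug left -0.22 ± 0.092 (adjusted p = 0.0663), which passed without no-drug replicate 2 (0.047) and without combination replicate 2 (0.0225).

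FOSL2, which encodes FRA2, was the FOS family gene with the most reads. It had 139, 133 and 136 CPM without drug, 90.1, 85.2 and 85.1 CPM with DEX, 139, 135 and 137 CPM with SH4-54 and 99.1, 104 and 94.7 CPM with both. DEX lowered it in cells without SH4-54 (-0.65 ± 0.038, adjusted p = 2.88e-09) and with it (-0.47 ± 0.037, adjusted p = 1.50e-07). With SH4-54 alone the difference was 0.01, with a 95% interval from -0.07 to 0.09. Added to DEX, SH4-54 raised it by 0.19 ± 0.038 (adjusted p = 0.00233).

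JUN, the main partner of the FOS proteins, had 68.3, 70.4 and 73.3 CPM without drug, 42.1, 44.2 and 41.6 CPM with DEX, 80.5, 79.4 and 77.5 CPM with SH4-54 and 97.1, 116 and 77.4 CPM with both. DEX alone lowered it 1.66-fold (-0.73 ± 0.099, adjusted p = 2.59e-05), and SH4-54 added to DEX raised it 2.26-fold (1.18 ± 0.099, adjusted p = 3.01e-06, 1.03 without combination replicate 2). It was then 0.45 ± 0.095 above no drug (adjusted p = 0.00141, 0.30 without combination replicate 2). Against SH4-54 alone the wells overlapped. That difference, 0.29 ± 0.095, passed (adjusted p = 0.026) but not when SH4-54 replicate 2 (0.0611) or 3 (0.071) or combination replicate 1 (0.0627) or 2 (log2 fold change 0.14, adjusted p = 0.141) was left out, nor with these 2 groups alone (0.0836).

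JUNB and JUND, the other JUN family genes, moved in opposite directions. JUNB had 17.7, 15.2 and 16.4 CPM without drug, 23.4, 20.8 and 23.4 CPM with DEX, 18.3, 18.7 and 18.2 CPM with SH4-54 and 23.0, 29.2 and 25.8 CPM with both. DEX raised it by 0.45 ± 0.081 (adjusted p = 0.000375) and by 0.50 ± 0.080 in the presence of SH4-54 (adjusted p = 0.00016). Added to DEX, SH4-54 left JUNB at 0.21 ± 0.079, which did not pass (adjusted p = 0.0601, or 0.0162 without combination replicate 1). JUND had 56.4, 57.0 and 51.6 CPM without drug, 47.9, 45.6 and 47.2 CPM with DEX, 52.2, 54.0 and 54.9 CPM with SH4-54 and 40.7, 41.4 and 43.9 CPM with both. DEX lowered JUND by a small margin, -0.23 ± 0.046 without SH4-54 (adjusted p = 0.000866) and -0.35 ± 0.047 with it (adjusted p = 2.91e-05). JUND was the 1 gene of the 9 called lower with both compounds than with DEX (-0.16 ± 0.047, adjusted p = 0.024), a call lost without DEX replicate 1 (0.0866) or 3 (0.0637) or combination replicate 1 (0.0881) or 2 (0.0781).

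ATF3, a stress-induced member of the ATF branch that pairs with JUN proteins, had 4.51, 5.01 and 5.17 CPM without drug, 6.27, 6.47 and 6.67 CPM with DEX, 6.19, 6.57 and 5.52 CPM with SH4-54 and 16.4, 20.8 and 15.9 CPM with both. Both single compounds gave wells above all no-drug wells, and the combination lay far above either. DEX raised ATF3 by 0.41 ± 0.12 (adjusted p = 0.011, or 0.05004 without no-drug replicate 1), and SH4-54 gave 0.32 ± 0.12, which did not pass (adjusted p = 0.262). With both it was 2.73-fold above DEX (1.45 ± 0.10, adjusted p = 1.12e-06, 1.32 without combination replicate 2) and 2.89-fold above SH4-54 (1.53 ± 0.11, adjusted p = 3.11e-08, 1.40 without it). The counts do not separate its 2 listed start sites.

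BATF3, a short partner of JUN proteins best known from dendritic cells, changed little. It had 4.32, 4.51 and 5.06 CPM without drug, 4.99, 5.34 and 5.65 CPM with DEX, 4.23, 3.53 and 3.70 CPM with SH4-54 and 6.41, 4.89 and 4.79 CPM with both. DEX gave 0.21 (95% interval from -0.06 to 0.47) and SH4-54 gave -0.27 (from -0.55 to 0), and neither passed (adjusted p = 0.20 and 0.388). With both it was higher than with SH4-54 alone (0.48 ± 0.13, adjusted p = 0.00801).

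Counted over the 9 genes, DEX against no drug raised JUNB and ATF3, lowered FOSL1, FOSL2, JUN and JUND and left 3 that did not pass, while 45.1% of all tested genes were called in that comparison (21.9% higher and 23.2% lower). With SH4-54 alone 2 genes, FOS and FOSB, rose and the other 7 did not pass (only FOSB rose without no-drug replicate 2). In that comparison 0.599% of all tested genes were called, 0.268% higher and 0.331% lower, and 8 genes in all (0.0564%), FOS and FOSB among them, rose at least 2-fold. FOSB was tested only because its wells with SH4-54 passed the count filter. The 85 genes called became 26 without no-drug replicate 2 and 163 without combination replicate 3. With both compounds against DEX 6 rose and 1 fell, and 26.6% of all genes were called (13% higher and 13.5% lower). With both against SH4-54 6 rose and 3 fell (40.4% of all genes, 20.1% higher and 20.3% lower). With both against no drug 5 rose and 2 fell (42.7% of all genes, 21.1% higher and 21.6% lower). Where so many of all genes were called, the counts alone were not read as a result about these 9. FOS, FOSB, JUN and ATF3 were called at least 2-fold higher with both compounds than with DEX, as were 1.15% of all tested genes.

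The interaction asked whether the DEX effect differed with SH4-54, as the difference between the log2 fold change of both compounds against SH4-54 and that of DEX against no drug. FOS, JUN and ATF3 passed, all higher, where 3.9% of all genes were called (2.44% higher and 1.46% lower). That background of 553 genes rested on single libraries, from 204 without DEX replicate 2 to 2046 without combination replicate 3, and SH4-54 replicate 1 was the only library that moved it by less than 1.5 times. For FOS the DEX effect was -0.54 without and 2.04 with SH4-54, a difference of 2.58 ± 0.45 (adjusted p = 0.00919). For JUN it was -0.73 and 0.29, a difference of 1.01 ± 0.14 (adjusted p = 0.00208), so that the value changed sign. The wells behind the 0.29 overlapped, and without combination replicate 2 it was 0.14 (adjusted p = 0.141). For ATF3 the DEX effect was 0.41 and 1.53, a difference of 1.13 ± 0.16 (adjusted p = 0.00252). Without combination replicate 2 these differences were 2.24, 0.87 and 1.00, and all 3 passed.

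FOSB had a difference of the same size, 2.53 ± 0.78, that did not pass (adjusted p = 0.0809) with few reads behind its level without drug and with DEX. It passed without combination replicate 2 (0.0423) or 3 (0.0134), with DESeq2 (0.00149) and without a count filter (0.0138), so that 5 of the 9 genes passed without combination replicate 3, FOSL2 being the other (0.0193). The remaining genes did not pass with all libraries, which does not show that their interaction was absent. The interval ran from 0.07 to 0.29 for FOSL2 (adjusted p = 0.0692), from -0.05 to 0.52 for FOSL1, from -0.19 to 0.30 for JUNB, from -0.26 to 0.02 for JUND and from -0.11 to 0.66 for BATF3.

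**Figure D2:**
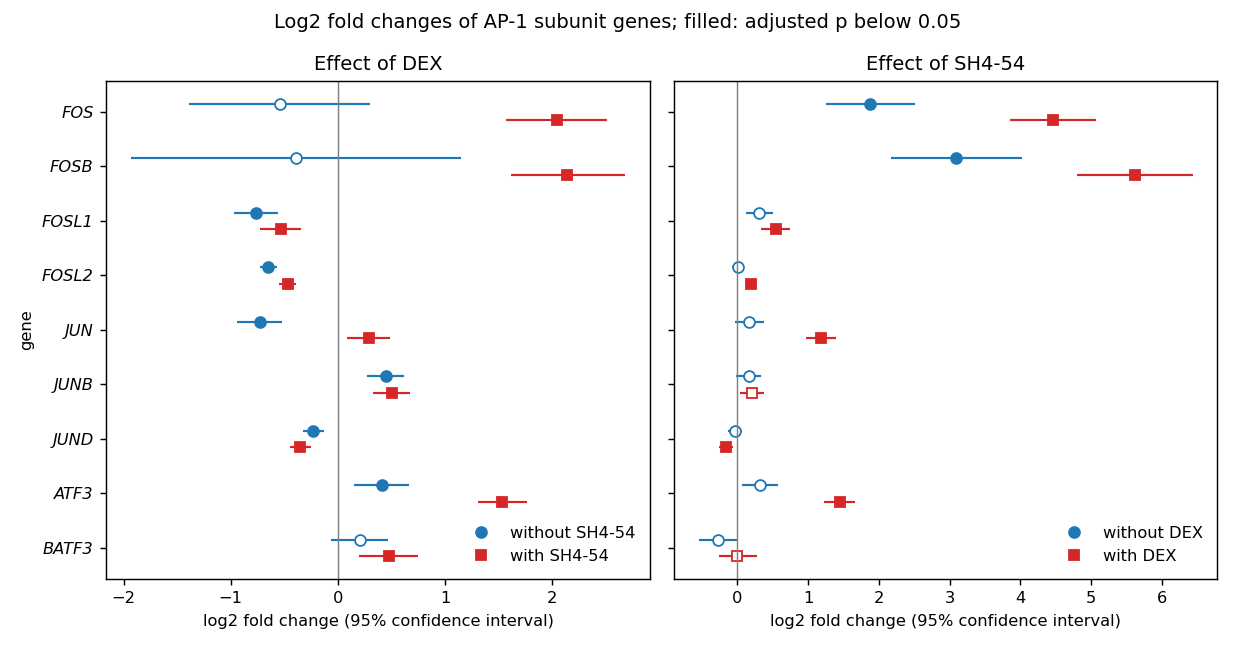
Log2 fold changes of the 9 AP-1 genes for DEX (left, without and with SH4-54) and for SH4-54 (right, without and with DEX), with 95% confidence intervals; filled symbols passed an adjusted p of 0.05. JUN lies below 0 for DEX alone (-0.73) and above it in the presence of SH4-54 (0.29, from overlapping wells, and 0.14 without combination replicate 2). FOSL2 lies below 0 in both (-0.65 and -0.47).

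The makeup of each family was described as the share of its summed CPM per kb, with no test, and depends on the same exon lengths. Without drug FOSL2 made up 64.7% ± 1.32 (SD, n = 3) and FOSL1 33.2% ± 1.25 of the FOS family, and FOS 1.9% ± 0.0485. With DEX the shares were 66.3% ± 1.41, 31.4% ± 1.37 and 2.1% ± 0.0712, while the family's sum was 19.3 ± 1.06 CPM per kb against 31 ± 1.22 without drug. With both compounds FOS made up 25.7% ± 5.58 (20.6% to 31.7%) and FOSB 4.81% ± 1.14, and the sum was 34.1 ± 5.7 CPM per kb. FOSL2 (43.3% ± 5.16) and FOSL1 still made up most of that sum, in smaller shares than without drug.

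In the JUN family JUND made up 50.4% ± 1.96 without drug and 50.8% ± 0.184 with DEX. With DEX the share of JUN was 24.3% ± 1.28 and that of JUNB 24.9% ± 1.14, from 34.1% ± 1.78 and 15.5% ± 1.12 without drug. With both compounds JUN made up 42.3% ± 4.99 and JUND 35.4% ± 4.11. With SH4-54 alone the shares of JUN (36.5% ± 0.873), JUNB (16.5% ± 0.164) and JUND (47.0% ± 0.99) overlapped those without drug for JUN and JUNB but lay lower for JUND in every well (46.0% to 48.0%, against 48.2% to 52.0%).

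**Figure D3:**
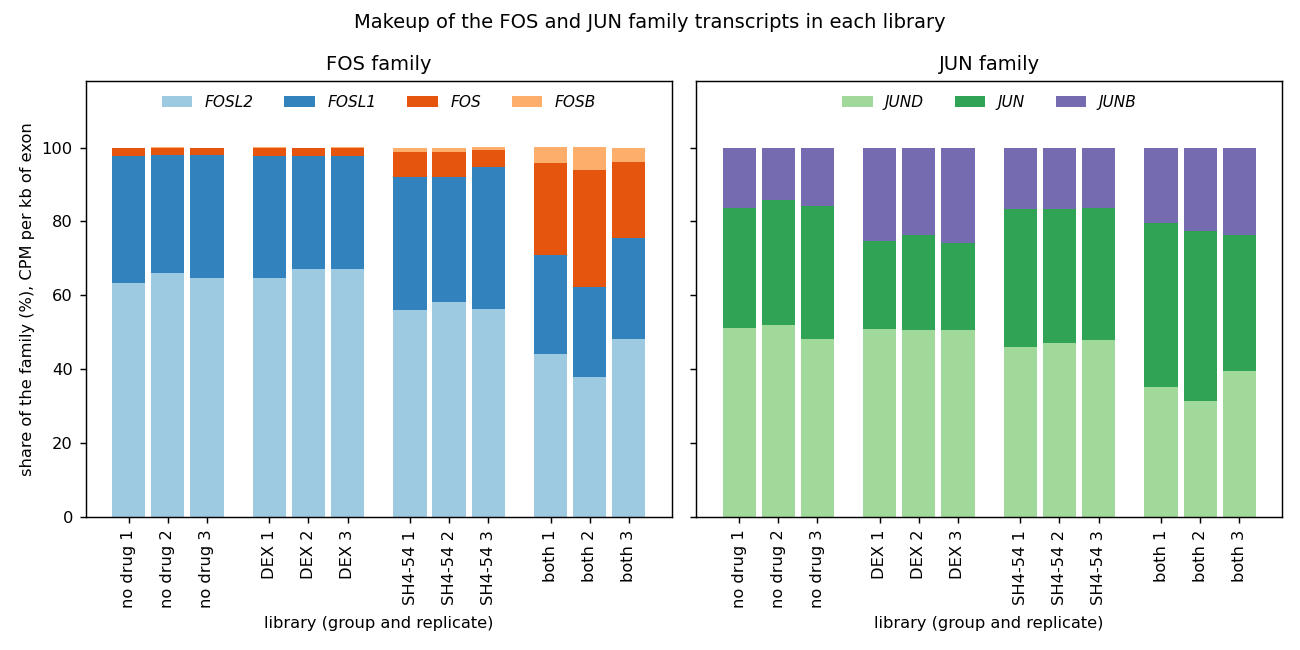
Stacked bars of each gene's share of the summed CPM per kb of exon of the FOS family (left) and JUN family (right) in the 12 libraries. FOS takes 20.6% to 31.7% of its family in the wells with both compounds and 1.86% to 2.18% without drug or with DEX, and JUNB takes 23.6% to 25.7% in the DEX wells and 14.2% to 16.4% without drug.

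For each of the 9 genes the 3 most alike genes were taken by Pearson's r of log2 CPM over the 12 libraries, among 10713 tested genes that reached 5 CPM in a group. The libraries share treatments, so these r describe the pattern and carry no test. FOS was most like FAM166A (r = 0.997, Spearman's rho 0.986), HSPA6 (0.979, 0.881) and the heme oxygenase gene HMOX1 (0.979, 0.965), and FOSB most like HSPA6 (0.991, 0.888), ARC (0.991, 0.972) and FRMD8 (0.981, 0.979). FAM166A (mean 5 CPM with both, 0.83 with SH4-54) and ARC (16.6 and 3.08) reached 5 CPM only with both compounds, where FOS and FOSB were highest. The filter thus admitted these genes through those wells. FAM166A had 1 to 5 reads in each no-drug and DEX well. JUN was most like PPP1R15A (0.991, 0.944), a stress gene that encodes a phosphatase subunit and went from 84.8 CPM without drug to 49.9 with DEX, 101 with SH4-54 and 138 with both. ATF3 was most like ZFAND2A (0.979, 0.79), FOSL1 like PCF11 (0.978, 0.965), FOSL2 like NCEH1 (0.996, 0.909), JUNB like PMEPA1 (0.971, 0.958), JUND like SORBS2 (0.977, 0.93) and BATF3 like POP1 (0.918, 0.937). Among the 9 themselves FOS and FOSB had the highest r (0.988), FOSL1 and FOSL2 had 0.909, and JUNB and JUND had -0.873.

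Known AP-1 targets were followed as a list of 25 genes, chosen with earlier results of these data known, of which 23 were tested. With DEX alone 2 were higher and 16 lower, with a median log2 fold change of -0.523 against -0.0111 over all tested genes, beside the shares of all genes given above. The cytokine gene IL11 (-4.27 ± 0.19), the protease gene PLAU (-1.81 ± 0.11) and the growth factor gene HBEGF (-1.16 ± 0.077) fell, and the chemokine gene CXCL8 (1.12 ± 0.097) was among those that rose. With both compounds against DEX 15 were higher and the other 8 did not pass (13 higher without combination replicate 2). The median was 0.534 against 0.00475 over all genes, of which 13% were higher and 13.5% lower. Against no drug, however, both compounds left 5 higher and 9 lower (median -0.0899), where 21.1% of all genes were higher and 21.6% lower. Against SH4-54 alone they left 5 higher and 12 lower (median -0.174), where 20.1% of all genes were higher and 20.3% lower. IL11 was still -1.87 ± 0.16 and PLAU -1.21 ± 0.11 against no drug. Among those higher than with DEX were IL11 (2.40 ± 0.19), the heme oxygenase gene HMOX1 (1.28 ± 0.099) and the collagenase gene MMP1 (1.48 ± 0.16). The comparisons of DEX with no drug and of both with DEX share the 3 DEX wells. With SH4-54 alone 4 were called higher, MMP3, MMP10 and HMOX1 among them, where 0.268% of all genes were higher. Of the list, 2 were called without no-drug replicate 2 and 7 in a fit of these 2 groups alone.

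The stromelysin genes MMP3 and MMP10 were near 0 in the wells without SH4-54, so the count filter admitted them through wells with it. MMP3 had 0, 0.103 and 0.339 CPM with DEX, 2.03, 1.46 and 1.81 CPM with SH4-54 and 7.81, 7.75 and 4.82 CPM with both. MMP10 had no read in any DEX well and 2.45, 1.74 and 1.21 CPM with both, at least 16.2-fold above the 0.111 CPM that 3 reads in each DEX library would give.

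**Figure D4:**
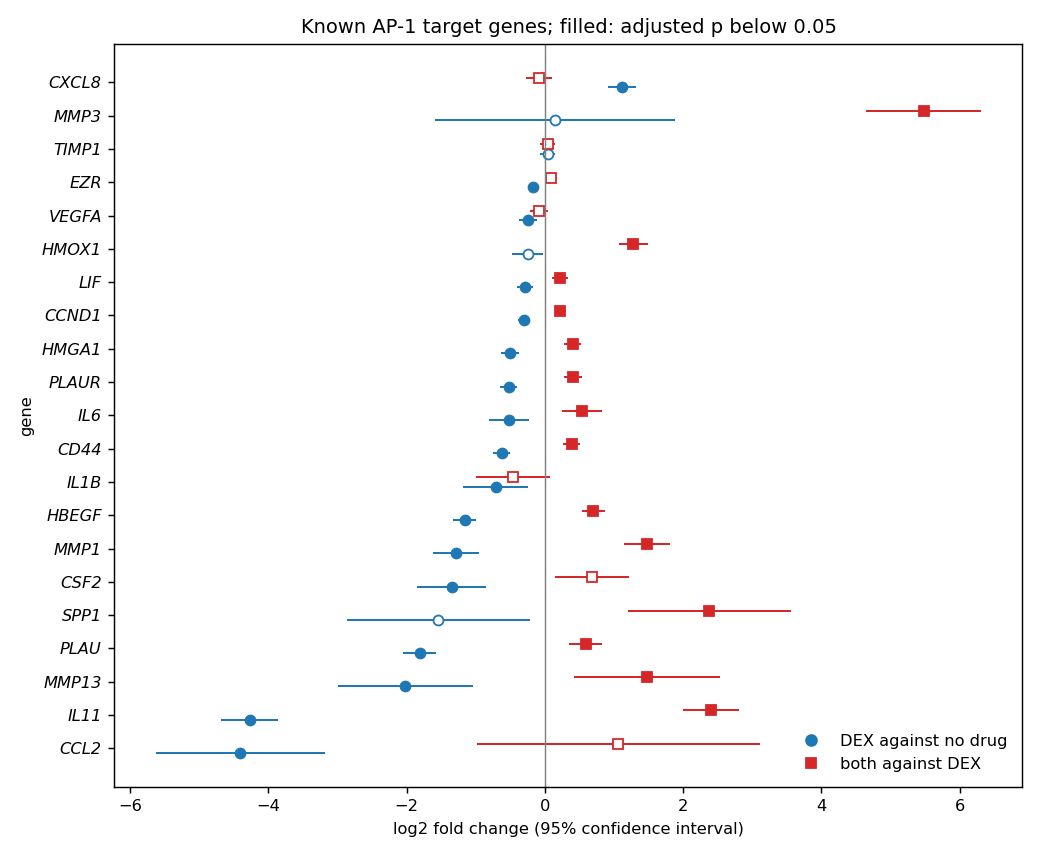
Log2 fold changes of known AP-1 target genes with DEX against no drug (circles) and with both compounds against DEX (squares), with 95% confidence intervals; filled symbols passed an adjusted p of 0.05, and both comparisons use the same DEX wells. IL11, PLAU and MMP1 lie below 0 with DEX (-4.27, -1.81 and -1.29) and above 0 for both compounds against DEX (2.40, 0.59 and 1.48); MMP10, at 0 with DEX, and 1 other gene are not drawn.

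Other immediate-early genes are known to be switched on by many of the signals that act on FOS. Of 20 listed, 18 were tested, and with both compounds against DEX 14 were higher and 1, KLF6, lower (12 and 1 without combination replicate 2), with a median of 0.597, where 13% of all genes were higher and 13.5% lower. Against no drug 12 were higher, with a median of 0.553, and 2 lower, IER5 (-0.41) and IER3 (-0.72, named after its value was seen), where 21.1% of all genes were higher and 21.6% lower. With SH4-54 alone ARC was the 1 gene of the list that passed, where 0.599% of all genes passed. The count filter admitted ARC through the wells with SH4-54, alone or with DEX, where it was high. In the list 2 genes passed without combination replicate 2 and 3 without combination replicate 3. ARC, an immediate-early gene of synaptic activity, had 0.0774, 0.171 and 0.0754 CPM with DEX (2, 5 and 2 reads). It had 3.33, 3.19 and 2.70 CPM with SH4-54 and 15.7, 23.5 and 10.6 CPM with both. EGR1 rose by 2.81 ± 0.30 over DEX, at low means of 0.529 CPM with DEX and 3.75 CPM with both. With DEX alone 3 were higher and 7 lower (21.9% and 23.2% of all genes), with a median of -0.0813. The higher genes were MYC, KLF6 and ZFP36, which encodes an mRNA decay factor, and IER5 (-1.02 ± 0.059) and BTG2 (-0.96 ± 0.18) were among the lower.

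Other basic leucine zipper genes that can pair with AP-1 subunits went both ways. Of 25 listed, 23 were tested. With DEX 5 were higher and 11 lower, where 21.9% of all tested genes were higher and 23.2% lower, with a median of -0.115. CEBPB (1.66 ± 0.074), BATF (1.47 ± 0.096) and CEBPD (1.35 ± 0.14) led upward and NFE2L2 (-0.34 ± 0.038) and CEBPG (-0.25 ± 0.034) downward. With both against DEX 6 were higher and 3 lower, where 13% of all genes were higher and 13.5% lower, with a median of 0.0353. MAFF (0.49 ± 0.071), a small MAF factor gene, and DDIT3 (0.43 ± 0.087), a stress-induced partner of C/EBP proteins, were among those that rose. BATF (-0.49 ± 0.089), CREB1 (-0.20 ± 0.040) and ATF2 (-0.15, named after its value was seen) fell. With SH4-54 alone 1 was called, where 0.599% of all genes were called. It was JDP2, which encodes a repressor of AP-1 (-0.37, also named after its value was seen). That call was lost without no-drug replicate 2 or 3, DEX replicate 1 or 3 or any 1 SH4-54 replicate, and in a fit of these 2 groups alone.

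The genes of the kinases that act on AP-1 went both ways. Of 22 listed MAP kinase genes 21 were tested, and with DEX 3 were higher and 9 lower (21.9% and 23.2% of all genes), with a median of -0.0692. MAP2K1, the gene of the ERK kinase MEK1, rose (0.44 ± 0.035), and RPS6KA5 (-1.05 ± 0.054), MAPK8 (-0.44 ± 0.039), which encodes the JUN kinase JNK1, RPS6KA3 (-0.33 ± 0.039) and MAP2K6 (-1.49 ± 0.19) fell. With both against DEX 4 were higher and 2 lower, where 13% of all genes were higher and 13.5% lower. Without combination replicate 2 the kinase counts were 2 and 0. MAP2K3 (0.51 ± 0.070), RPS6KA4 (0.28 ± 0.049) and MAP3K11 (0.21 ± 0.059) were among the higher and MAP3K5 (-0.46 ± 0.12) among the lower.

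Among the 9 MAP kinase phosphatase genes, whose products switch these kinases off, DEX raised DUSP1 (1.75 ± 0.048) and lowered DUSP4 (-1.09 ± 0.033), DUSP10 (-0.79 ± 0.051), DUSP5 (-0.32 ± 0.052) and DUSP7 (-0.42 ± 0.097). With both against DEX DUSP7 (0.38 ± 0.098), DUSP8 (0.79 ± 0.24) and DUSP1 (0.15 ± 0.046) were higher and DUSP16 (-0.43 ± 0.074) lower. That count of 4 was 1 without combination replicate 2 and 2 without combination replicate 1 or DEX replicate 2 or 3. Of all tested genes 45.1% were called with DEX and 26.6% with both against DEX.

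Of the serum response factor gene SRF and its cofactors, which act on the FOS promoter, 6 of 7 were tested. DEX raised ELK3 (0.52 ± 0.061) and MKL1 (0.42 ± 0.10) and lowered SRF (-0.19 ± 0.056). Both compounds against DEX raised SRF (0.22 ± 0.056), a call lost without combination replicate 2. Of 8 genes linked to the degradation of FOS and JUN proteins, DEX raised STUB1 (0.25 ± 0.069) and DET1 (0.35 ± 0.13), and 1 of the 2 remained called with DESeq2, without no-drug replicate 2 or 3 or without DEX replicate 1 or 3. With both against DEX RFWD2, which encodes the COP1 ligase of JUN, rose (0.16 ± 0.042) and USP28 (-0.12 ± 0.034) and ITCH (-0.09 ± 0.027) fell. Of these 3, 1 was called without DEX replicate 2 or combination replicate 2 or with these 2 groups alone. As background, 45.1% of all tested genes were called with DEX and 26.6% with both against DEX.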

How the data were processed

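The authors deposited whole-number read counts for each gene symbol. The submitters' processing notes list featureCounts 1.5.1, HISAT2 2.1.0 and SAMtools, with GRCh37 and hg19 as builds. Which annotation and strand setting were used, and how multi-mapping reads were handled, is not stated there, so overlapping genes are uncertain. Groups and replicates came from the sample titles. No source says that the wells were separate cultures, and the spread behind each p-value may be technical.

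The test was run with edgeR 4.0.16 under R 4.3.3. Genes were kept by filterByExpr, scaled by TMM and fitted in 1 quasi-likelihood model of the 4 groups over 12 libraries (8 residual degrees of freedom), with Benjamini-Hochberg adjustment over 14184 genes. A standard error is the size of a log2 fold change divided by the root of its F statistic. Log2 CPM used a prior count of 2. The tests were tried on simulated data. Alternatives were DESeq2 1.42.0, its size factors in edgeR, other count filters, a replicate block, compared groups alone and leaving out each library.

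The 9 genes and the 7 gene lists were chosen with earlier results of these data known, and the promoter letters after the sequences were seen. From each list up to 5 called genes with the smallest p with DEX and with both against DEX could be named (some are not reported here), and the 3 genes most alike each member. Replicate wells all differed by more than counting noise (the smallest chi-square was 4.23 times its degrees of freedom). The 95% intervals rest on a spread estimated for each gene over all 4 groups together. With both compounds the SD was 38.4% of the mean for FOS and 19.7% for JUN. Without drug it was 5.88% and 3.59%. For such genes the intervals may be too narrow where wells with both compounds are compared and too wide for DEX against no drug.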

Additional observations from a re-analysis of the deposited data

Results flagged for a closer look

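For FOS the effect of DEX differed between cells with and without SH4-54, with a log2 difference of 2.58 (edgeR adjusted p = 0.00919), and it passed whichever 1 of the 12 libraries was left out, with 2.24 to 2.79. For JUN the difference was 1.01 (edgeR adjusted p = 0.00208, 0.87 to 1.13 with a library left out), and for ATF3 it was 1.13 (edgeR adjusted p = 0.00252, 1.00 to 1.19). In each case the difference was tested as an interaction. In the wells with both compounds FOS, JUN and ATF3 were highest in replicate 2, which also had the most HSPA6 (483 CPM), and the part of that well was measured only by leaving it out.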

How the results depend on the processing

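Over the settings other than a left-out library, the fold changes of the 9 AP-1 genes kept their direction and their side of the threshold in 303 of the values recomputed, crossed the threshold in 7 and changed sign in 4. With a library left out the numbers were 624, 16 and 8. The sign changes were all of values that did not pass. They were FOSB with DEX (0.11 without no-drug replicate 1, and from -0.64 to 0.11 with any library left out), FOSL2 with SH4-54 (0 without no-drug replicate 2 or SH4-54 replicate 1, at most 0.02 with any library left out), the JUNB interaction (0, 0 and -0.04 without no-drug replicate 1, DEX replicate 2 or combination replicate 2, at most 0.13) and BATF3 with both against DEX (-0.01 with DESeq2 size factors, with the DESeq2 test and without a count filter, 0 with the replicate block, -0.04 without DEX replicate 1 and -0.14 without combination replicate 1, at most 0.07). The number of the 9 genes called with a library left out ran from 1 to 2 for SH4-54 against no drug and from 3 to 5 for the interaction, and the cause was not tested. The number of all genes called for SH4-54 against no drug was 85, or 185 with DESeq2, 176 without a count filter, 155 with the compared groups alone and 26 to 163 with a library left out. For both against DEX it was 3770, or 2213 to 4633 with a library left out. For the interaction it was 553, or 848 without a count filter and 204 to 2046 with a library left out. For these counts too the cause was not tested.

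No source says that the replicate numbers pair the wells. Of 18 same-numbered pairs, 3 had a correlation of deviations over 0.1 (from -0.325 to 0.245). Wells with different numbers were not compared, so these correlations cannot decide whether the numbers pair the wells. With the replicate block the FOSB interaction passed (2.51, edgeR adjusted p = 0.0384), 4 of the 9 genes were called for the interaction, and the number called in the other 5 comparisons did not change. Depth limits FOSB, with 4 to 12 reads in a well without drug or with DEX.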
